A study of Mus musculus with 7 samples.

Results

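The receptors and Gli transcription factors of the Hedgehog pathway were followed as 9 genes, Ptch1, Smo, Gli1, Gli2, Gli3, Hhip, Boc, Cdon and Gas1, of the 32285 genes counted by single-cell RNA sequencing of the mouse ventricular-subventricular zone (V-SVZ). They were found by gene symbol in all 7 libraries. The V-SVZ is the germinal layer in the lateral wall of the lateral ventricle, and each library pooled the dissected tissue of 2 to 3 mice of both sexes, 31 to 33 days old. The 3 control libraries came from mice whose genotype is labelled Prdmflox/flox, with no Cre. The 3 cKO libraries came from hGFAP-Cre+/-; Prdm16flox/flox mice, and the single DKO library from hGFAP-Cre+/-; Prdm16flox/flox; Vcam1flox/flox mice. All groups, the controls included, therefore carried floxed alleles, and no library had Cre without a floxed gene. The hGFAP promoter drives Cre in radial glia of the embryo, so recombination can be inherited by the neurons, astrocytes, oligodendrocyte-lineage and ependymal cells that descend from them.

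Hedgehog ligands bind PTCH1, a membrane protein that in their absence holds the signal transducer SMO inactive at the primary cilium. Active SMO changes how the GLI proteins are processed: GLI2 acts mainly as an activator of target genes and GLI3 mainly as a repressor, while Gli1 is itself a target gene and is widely read, with Ptch1, as a sign of pathway activity. BOC, CDON and GAS1 are coreceptors that help the ligand reach PTCH1, and HHIP is a surface protein that binds the ligand and withholds it. In the adult V-SVZ, Sonic hedgehog is known to act on ventral neural stem cells and to take part in setting which olfactory bulb interneurons they produce.

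The files held 65049 barcodes, of which 43346 cells passed the filters, with a median of 4959.5 to 8317.5 UMIs per cell in the 7 libraries. A UMI marks 1 captured RNA molecule, and a level in the following text is the number of UMIs of a gene in every 1000000 UMIs (CPM) of all cells of 1 type in 1 library. No pair of libraries shared more than 70 barcodes. Cells were grouped into 12 types for comparison: neural stem cell (NSC)-like (8345 cells), astrocyte-like (2216), ependymal-like (2784), transit-amplifying progenitor (TAP)-like (2864), neuroblast-like (7962), neuron-like (2359), oligodendrocyte precursor (OPC)-like (1576), oligodendrocyte-like (5249), endothelial-like (2997), mural-like (1467) and microglia-like (1092) cells, and cluster 9 (2017 cells), which had no name and was led by the replication genes Ung, Cdc6, Mcm2 and Mcm3. The 9 genes took no part in the clustering. The NSC-like name is the least certain: 6 of 7 NSC markers but also 7 of 8 astrocyte markers were raised in that cluster, and 52.6% of its cells scored highest for the NSC list. Cluster 6 (2336 cells, led by Lgals7, Lgals1 and Hmga2, 1292 of them from control library 2) and 82 T cell-like cells were not compared. In NSC-like cells, the Prdm16 level was 73.2, 61.6 and 67.9 CPM in the control libraries, 55.5, 53.2 and 46.0 CPM in the cKO libraries and 56.2 CPM in the DKO library, while Vcam1 was at 153, 128.3 and 109 CPM in the controls, 153, 177 and 167 CPM in the cKO libraries and 85.2 CPM in the DKO library. Reads from the 3′ end of a transcript check a deletion only where they lie in the deleted part, which the sources used here do not place. cKO library 1 differed from the other 2 cKO libraries: without it, the number of genes called in NSC-like cells went from 19 to 1557. The filters kept 74.7% of barcodes in cKO library 1 but 49.8% and 47.2% in cKO libraries 2 and 3. In the control and DKO libraries they kept 70.2 to 74.3%. Of 1528 NSC-like cells in cKO library 3, 717 had under 2000 UMIs, against 110 of 1022 in cKO library 1. Fits without cKO library 1 therefore rest on the 2 cKO libraries with the lowest share kept.

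The receptor and the transducer were read first across cell types in the control libraries. Ptch1 (GRCm38 chromosome 13, 63508328 to 63573598, minus strand) was at 181 ± 45.8 CPM (SD, n = 3) in astrocyte-like and 128.4 ± 24.9 CPM in NSC-like cells, ranges that overlapped, and the NSC-like range of 108 to 156 CPM lay above that of the next type. That type was neuron-like cells, at 74.0 ± 13.8 CPM. Cluster 9, TAP-like, OPC-like, endothelial-like, oligodendrocyte-like, neuroblast-like and mural-like cells followed at 62.5 down to 39.6 CPM, each overlapping its neighbour, and ependymal-like (26.7 ± 7.33 CPM) and microglia-like cells (15.9 ± 9.30 CPM) were lowest. Ptch1 was thus seen in every compared type, with a span of levels of about an order of magnitude.

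Smo (chromosome 6, 29735503 to 29761365, plus strand) had a different order. Its control level was 73.6 ± 9.15 CPM in astrocyte-like, 72.1 ± 8.51 CPM in NSC-like, 64.2 ± 13.8 CPM in ependymal-like and 53.4 ± 12.7 CPM in microglia-like cells, with each overlapping the next. Cluster 9 (44.9 CPM) and mural-like cells (40.3 CPM) came after these, then TAP-like (28.0 CPM) and endothelial-like cells (26.9 CPM). Neuroblast-like (13.6 ± 2.98 CPM) and OPC-like cells (12.9 ± 4.26 CPM) did not overlap the types above and below them. Neuron-like and oligodendrocyte-like cells were at the bottom with 2.03 ± 1.16 and 1.83 ± 0.725 CPM, although both held Ptch1 at 74.0 and 46.9 CPM. Ependymal-like cells showed the opposite pairing, with Smo in the upper group and Ptch1 next to last.

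**Figure D1:**
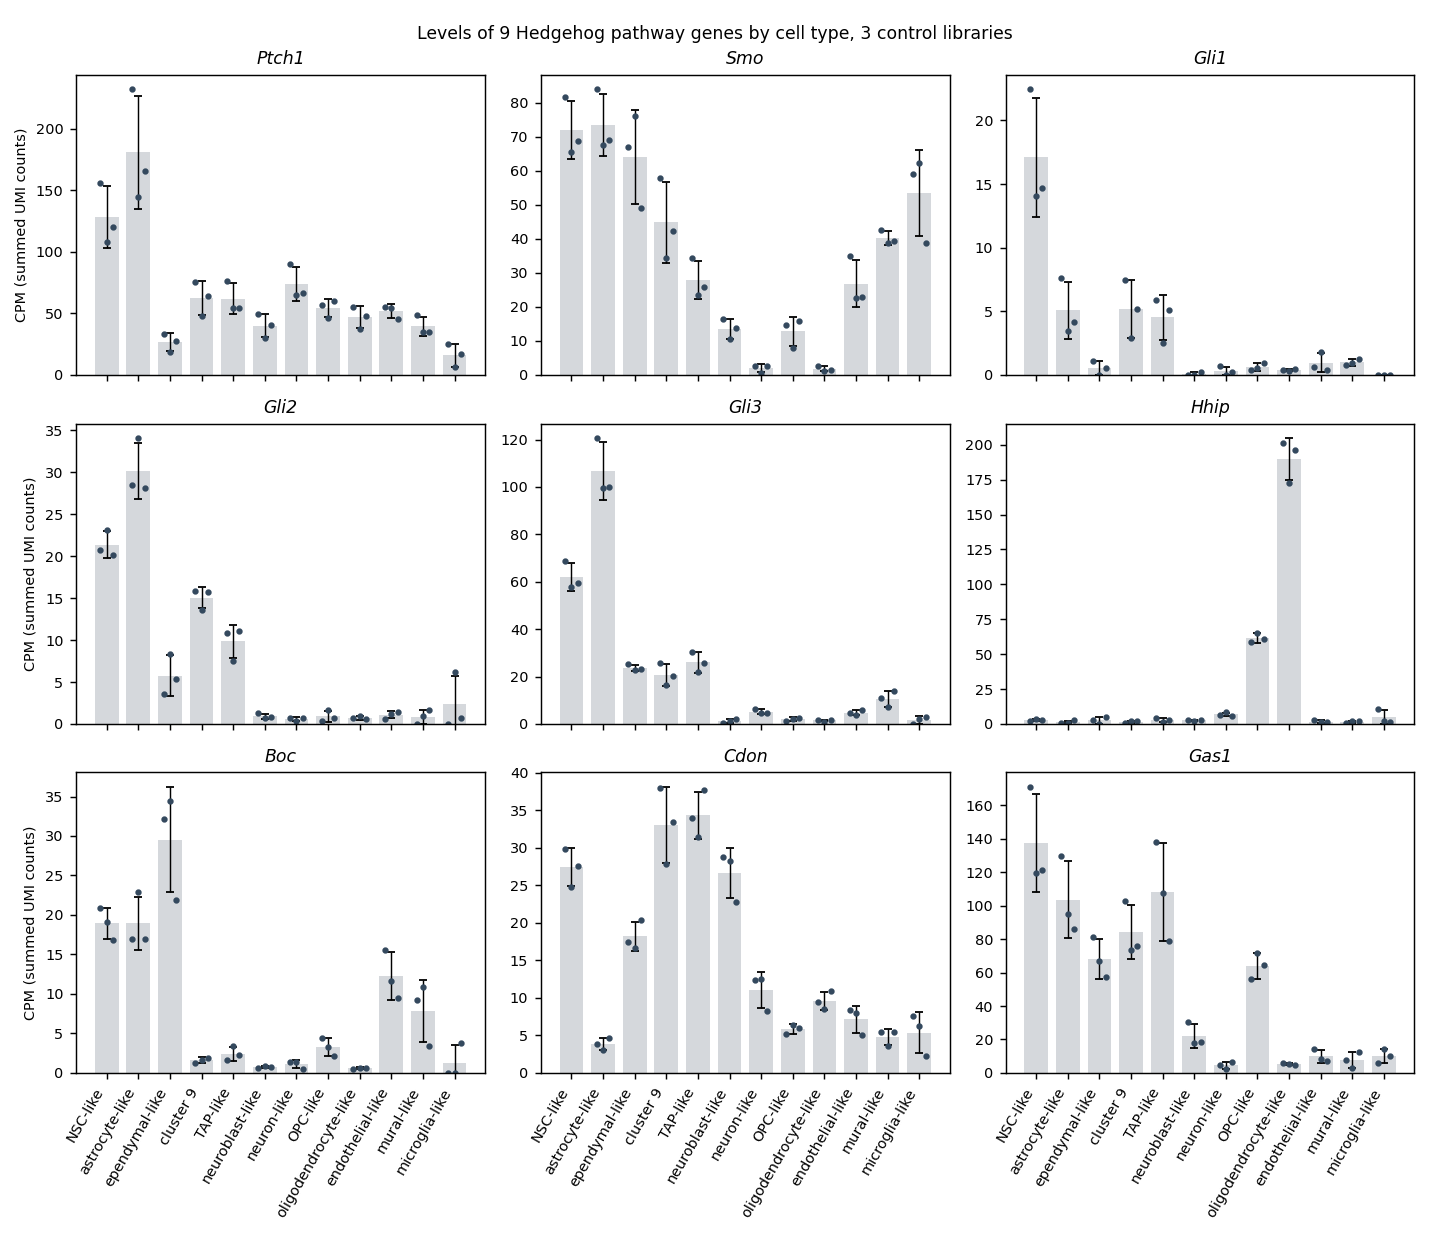
Levels of the 9 genes (CPM, y axis starting at 0, a separate scale for each gene) in the 12 cell types, as the control mean (bar) with its SD (line) and each control library as a point (n = 3). Gli1 stood highest in NSC-like cells (17.1 CPM), Hhip in oligodendrocyte-like cells (190 CPM) and Boc in ependymal-like cells (29.5 CPM).

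Each of the Gli factors was highest in NSC-like or astrocyte-like cells, and at or below 2.33 CPM in OPC-like, oligodendrocyte-like and microglia-like cells. Gli1 (chromosome 10, 127329882 to 127341974, minus strand) was highest in NSC-like cells at 17.1 ± 4.68 CPM, from 14.1 to 22.5 CPM, with no overlap with cluster 9 (5.19 ± 2.25 CPM), which was followed by astrocyte-like (5.10 ± 2.24 CPM) and TAP-like cells (4.52 ± 1.75 CPM). These 3 overlapped among themselves and lay above the other 8 types, all at or below 0.983 CPM. NSC-like cells held 679 of the 1294 Gli1 UMIs (52.5%) over all 7 libraries, and microglia-like cells held 0. Gli1 was the member with the fewest UMIs after filtering, against 26477 for Ptch1.

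Because cells of these types were sequenced to different depths, the share of cells with a Gli1 UMI was also taken after each cell had been thinned to 2000 UMIs. With the cells of all libraries pooled, it was 2.55% in NSC-like cells (exact 95% binomial interval 2.17 to 2.99%, 152 of 5951 cells). By library, the NSC-like share was 2.58 to 3.38% in the controls, 0.749 to 3.62% in the cKO libraries and 2.00% in the DKO library. The pooled share was 1.47% in astrocyte-like, 0.875% in TAP-like and 0.707% in cluster 9 cells. In neuroblast-like cells it was 0.0723%, in OPC-like cells 0 of 1343 and in microglia-like cells 0 of 839, which, at 3 counts of the total, allow shares of up to 0.223% and 0.358%. The first 4 types thus lay above the level seen where Gli1 UMIs are nearly absent. Without thinning, NSC-like cells had a share of 6.87% at a median of 4921 UMIs and neuroblast-like cells 0.176% at 5422 UMIs. These intervals and limits cover counting error over pooled cells only, and not the spread between libraries.

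Gli2 (chromosome 1, 118834132 to 119053619, minus strand) fell into separate steps, at 30.2 ± 3.34 CPM in astrocyte-like, 21.3 ± 1.61 CPM in NSC-like and 15.1 ± 1.26 CPM in cluster 9 cells, none of which overlapped. TAP-like cells came next at 9.84 ± 2.01 CPM and ependymal-like cells at 5.76 ± 2.40 CPM, and the remaining 7 types were at or below 2.33 CPM. Gli3 (chromosome 13, 15463235 to 15730026, plus strand) also led in astrocyte-like cells (107 ± 12.1 CPM), above NSC-like cells (62.0 ± 5.85 CPM) without overlap. TAP-like (26.0 CPM), ependymal-like (23.7 CPM) and cluster 9 cells (20.7 CPM) overlapped in the middle, mural-like cells were at 10.7 CPM, and all others were at or below 5.18 CPM. Gli2 and Gli3 were thus higher in astrocyte-like than in NSC-like cells, while Gli1 was higher in NSC-like cells.

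The coreceptors did not share 1 distribution. Boc (chromosome 16, 44485049 to 44558897, minus strand) was highest in ependymal-like cells at 29.5 ± 6.67 CPM, which overlapped astrocyte-like (19.0 ± 3.38 CPM), itself overlapping NSC-like cells (19.0 ± 1.99 CPM). Endothelial-like cells followed at 12.2 ± 3.04 CPM. Boc was at or below 2.43 CPM in TAP-like, cluster 9, neuroblast-like, neuron-like, oligodendrocyte-like and microglia-like cells.

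Cdon (chromosome 9, 35421128 to 35507652, plus strand) ordered the types differently. Its level was 34.3 ± 3.16 CPM in TAP-like, 33.0 ± 5.07 CPM in cluster 9, 27.4 ± 2.56 CPM in NSC-like and 26.6 ± 3.34 CPM in neuroblast-like cells, each overlapping the next. Below these lay ependymal-like cells at 18.2 ± 1.93 CPM and neuron-like cells at 11.1 ± 2.42 CPM. Astrocyte-like cells, where Ptch1, Smo, Gli2 and Gli3 were highest, had the lowest Cdon level of the 12 types, 3.84 ± 0.832 CPM.

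Gas1 (chromosome 13, 60174405 to 60177365, minus strand) was at 137 ± 29.2 CPM in NSC-like, 108 ± 29.5 CPM in TAP-like, 104 ± 23.0 CPM in astrocyte-like and 84.2 ± 16.2 CPM in cluster 9 cells. Ependymal-like (68.3 ± 11.96 CPM) and OPC-like cells (64.1 ± 7.87 CPM) closed this group, in which neighbours overlapped. OPC-like cells were separated without overlap from neuroblast-like cells (22.2 ± 7.05 CPM), and the other 5 types were at or below 10.1 CPM.

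Hhip (chromosome 8, 79965851 to 80058006, minus strand), the ligand-binding inhibitor, was found mainly in the oligodendrocyte lineage. Oligodendrocyte-like cells held 91.4% of its 21708 UMIs, at 190 ± 15.0 CPM, and OPC-like cells were at 61.6 ± 3.51 CPM, with no overlap between the 2 types or with neuron-like cells at 6.85 ± 1.27 CPM. All other types were at or below 4.69 CPM. Within neuron-like cells, however, a small cluster of 199 cells was at 54.8 CPM (all libraries pooled), as described below. After thinning to 2000 UMIs, 31.8% of oligodendrocyte-like cells (exact 95% interval 30.5 to 33.1%) and 5.81% of OPC-like cells had a Hhip UMI, against 0.492% of neuroblast-like cells. Without thinning the share in oligodendrocyte-like cells was 83.4%, at a median of 17879 UMIs per cell. Hhip was among the 10 genes that lead the oligodendrocyte-like cluster, although it had been left out of the clustering.

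A finer clustering at resolution 0.3, chosen after the values had been seen, split this lineage into 4 clusters, led by Pdgfra (903 cells, a gene of OPCs), by Bmp4 and Gpr17 (1420 cells, genes of differentiating precursors), by Opalin (3256 cells) and by Klk6 (1245 cells), both genes of myelinating cells. The Hhip level in the control libraries was 11.7 ± 2.22, 108 ± 7.68, 205 ± 17.4 and 169 ± 15.4 CPM in this order, and the first 3 clusters did not overlap. Gas1 ran the other way, at 142 ± 2.71, 18.7 ± 2.34, 4.62 ± 1.91 and 0.684 ± 0.426 CPM. Smo was at 26.3 ± 6.92, 7.93 ± 5.94, 0.838 ± 0.196 and 0.869 ± 0.390 CPM. Ptch1 differed less, at 65.4 ± 5.86, 53.0 ± 14.6, 43.0 ± 6.54 and 52.2 ± 12.3 CPM. The clusters come from the same cells as these levels, so no test was made, and the names order the clusters by their leading genes and not by time.

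**Figure D2:**
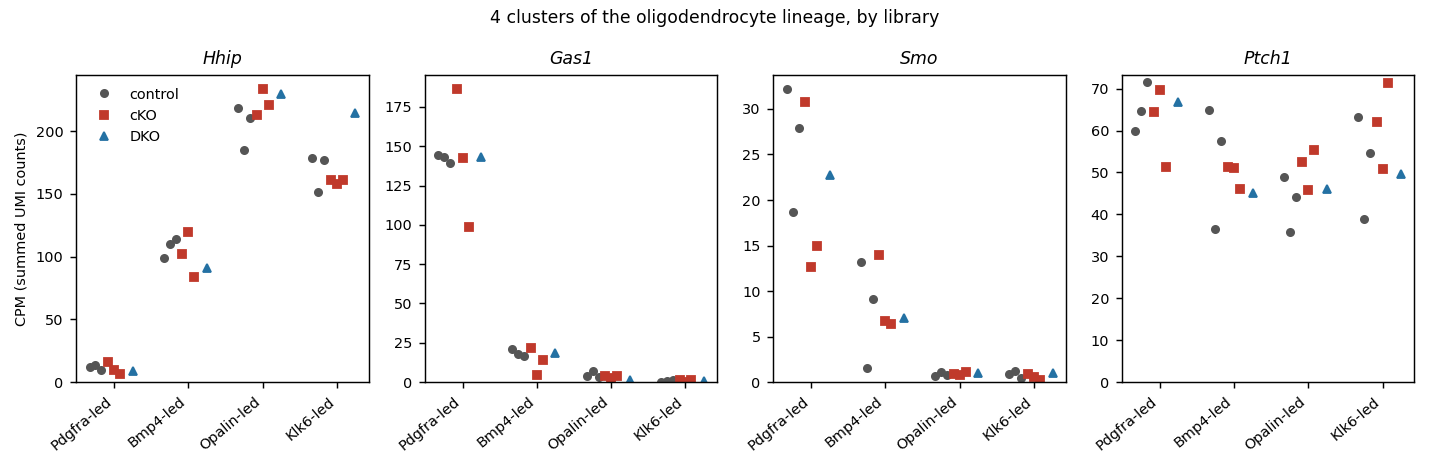
Levels of Hhip, Gas1, Smo and Ptch1 (CPM, y axis) in the 4 oligodendrocyte-lineage clusters at resolution 0.3 (x axis, from Pdgfra-led to Klk6-led), with each of the 7 libraries as a point, marked by group. The control mean of Hhip was 11.7 CPM in the Pdgfra-led cluster and 205 CPM in the Opalin-led cluster, and that of Gas1 142 CPM and 4.62 CPM.

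The genes whose control levels ran most closely with each member over the 12 types were found by Pearson's r of log2(CPM + 1) among 12389 genes, 12390 for Gli1, as a description with no test, since the types share the libraries. For Gli1 they were Gm10561 (0.95), Fzd5 (0.95), which encodes a Wnt receptor, and Kctd14 (0.94), and for Gli2 they were Kctd14 (0.96), Lhx2 (0.95) and Nr2e1 (0.94), of which the latter pair encodes transcription factors of forebrain progenitors. For Ptch1 they were Ahcyl1 (0.97), Prkd1 (0.91) and Golga1 (0.89), for Smo Pgghg (0.96), Suclg2 (0.94) and Zfp217 (0.94), and for Gli3 C030037D09Rik (0.92), Lin52 (0.92) and Cbs (0.91). Hhip ran with Tmeff2 (0.99), Map6d1 (0.98) and Gm28320 (0.97). For Boc they were Heph (0.95), Gstm1 (0.94) and Smpdl3a (0.94), for Cdon Ssbp3 (0.92), Nop16 (0.90) and Eif1ax (0.90), and for Gas1 Sox21 (0.98), E130114P18Rik (0.95) and Tmem209 (0.94). Kctd14 was the one gene named for more than 1 member.

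The ligands themselves were sparse. Shh (chromosome 5, 28456815 to 28467256, minus strand), which encodes Sonic hedgehog, had 78 UMIs in neuron-like, 30 in OPC-like and 22 in oligodendrocyte-like cells over the 7 libraries, and at most 4 in each of the other compared types, with 2 in NSC-like cells. The OPC-like level was 0.892 to 3.35 CPM across libraries. After thinning to 2000 UMIs, 1.25 to 1.65% of OPC-like cells had a Shh UMI in the control libraries, 0% in the cKO libraries and 0.905% in the DKO library. In neuron-like cells the shares were 0.407 to 2.75%, 0 to 0.164% and 0%. These shares rest on 11 and 8 cells in all and were not tested. cKO library 2 held only 67 OPC-like and 94 neuron-like cells before thinning, so a share of 0% there sets no low limit. Of the 78 neuron-like UMIs, 42 came from a cluster of 199 cells described next, and its part in these shares was not tested. Without thinning, every library had Shh UMIs in OPC-like cells. After thinning, 0 of 5951 NSC-like cells had a Shh UMI, which, at 3 counts of the total, allows a share of up to 0.0504%. Ihh and Dhh, the other ligands of the family, had 1 UMI each in NSC-like cells.

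Within neuron-like cells, the Shh level was highest in 1 small cluster. This cluster of 199 cells was led by Sst, Npy, Lhx6 and Nkx2-1, genes of interneurons that arise in the medial ganglionic eminence. It held 42 Shh UMIs (18.9 CPM over all libraries pooled), in 14.1% of its cells and in 6 of 7 libraries, whereas the other 2160 neuron-like cells, which expressed the striatal genes Penk and Ppp1r1b, held 36 (1.15 CPM) in 1.62% of cells. The smaller share came from the deeper cells, with a median of 12836.5 UMIs against 7625. The same 199 cells had 122 Hhip UMIs (54.8 CPM) against 89 (2.85 CPM) in the larger cluster, and Nkx2-1 at 124 against 0.192 CPM. Ptch1 was at 28.3 CPM in the small and 71.5 CPM in the large cluster, and Gli1 had 0 and 8 UMIs. The 199 cells included only 4 from the library with the fewest, so no genotype comparison was made there.

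The effect of the Prdm16 deletion was examined by comparing cKO with control libraries within each type, with UMI counts summed per library and edgeR's quasi-likelihood test over all genes. Of 108 pairs of a member and a cell type, 80 passed the filter on low counts, and 0 had an adjusted p under 0.05, with edgeR and also with DESeq2. The smallest adjusted p was 0.1496 (edgeR). Of all genes tested, the share called was 0.129% in NSC-like, 1.24% in astrocyte-like, 0.144% in ependymal-like, 0.172% in cluster 9, 0.0292% in neuroblast-like, 0.0076% in neuron-like, 0.00889% in mural-like and 0.00869% in endothelial-like cells, and 0% in TAP-like, OPC-like, oligodendrocyte-like and microglia-like cells. An unadjusted p under 0.05 was reached in 7 of the 80 pairs (8.75%), beside 6.42% of all genes tested in the 12 types together. In 6 pairs (7.5%) the 3 cKO libraries all lay below the 3 controls, beside 7.28% of all genes, and in no pair did they all lie above. Both shares were thus near those of all genes. The fitted change was below 0 in 51 of 80 pairs. The mice behind each library differ, and each pool of animals gave 1 library. These p-values thus measure the spread between libraries, in which animals and library preparation cannot be told apart.

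**Figure D3:**
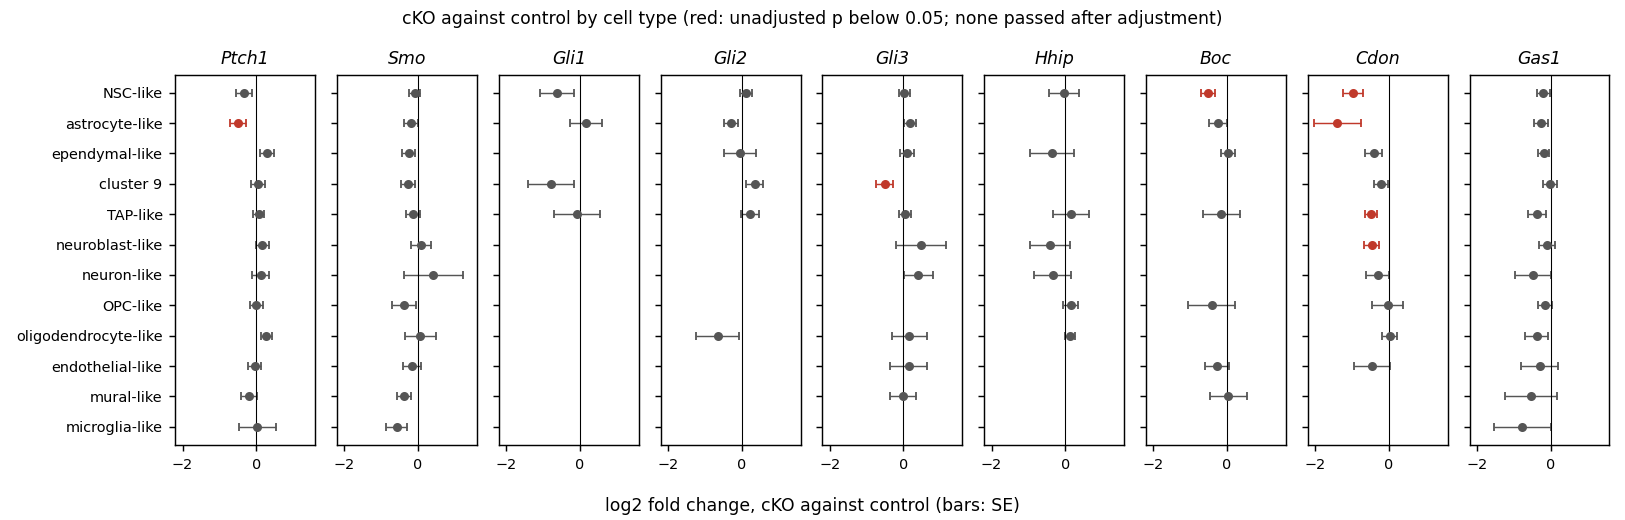
Fitted log2 fold change, cKO over control (x axis; edgeR, bars are SE), of each of the 9 genes (panels) in the cell types where it passed the filter on low counts (y axis), in red where the unadjusted p was under 0.05. Of the 80 points, 7 are red and 0 passed the adjusted threshold.

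In NSC-like cells, all 9 members were tested, 7 had a fitted change below 0, and the median change was −0.20 on the log2 scale, beside −0.01 over all 14737 genes. Cdon had the smallest p of them. Its level was 29.9, 24.8 and 27.6 CPM in the control libraries, 19.8, 11.8 and 8.50 CPM in the cKO libraries and 16.9 CPM in the DKO library. The cKO libraries all lay below the controls, and the DKO library lay between the highest and the next of the cKO libraries. The log2 fold change was −0.98 (SE 0.26), with an adjusted p of 0.1496 in edgeR's quasi-likelihood test (unadjusted p = 0.00402), so Cdon did not pass the threshold. The exact permutation test over the 3 against 3 libraries gave p = 0.1, the smallest it can give. Without cKO library 1 the change was −1.39 with an adjusted p of 0.000477 in edgeR, and Cdon was then called. Calls over all genes of NSC-like cells rose in that fit as well.

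Neither of the other coreceptors was called. Boc stood at 20.8, 19.1 and 16.9 CPM in the control libraries, 11.7, 16.6 and 10.4 CPM in the cKO libraries and 13.0 CPM in the DKO library, again with all cKO libraries below the controls. Its log2 fold change was −0.51 (SE 0.20) with an edgeR adjusted p of 0.318 (unadjusted p = 0.0266). Boc and Cdon were thus the 2 members of 9 without overlap, while 16% of all genes tested in NSC-like cells did not overlap in either direction and 9.62% did so with the cKO libraries below. Unadjusted p-values under 0.05 were likewise found for 2 members, against 12.8% of all genes. Gas1 was at 171, 120 and 121 CPM in the controls, 116, 133 and 91.9 CPM in the cKO libraries and 149 CPM in the DKO library, and the groups overlapped (log2 fold change −0.20, SE 0.18).

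**Figure D4:**
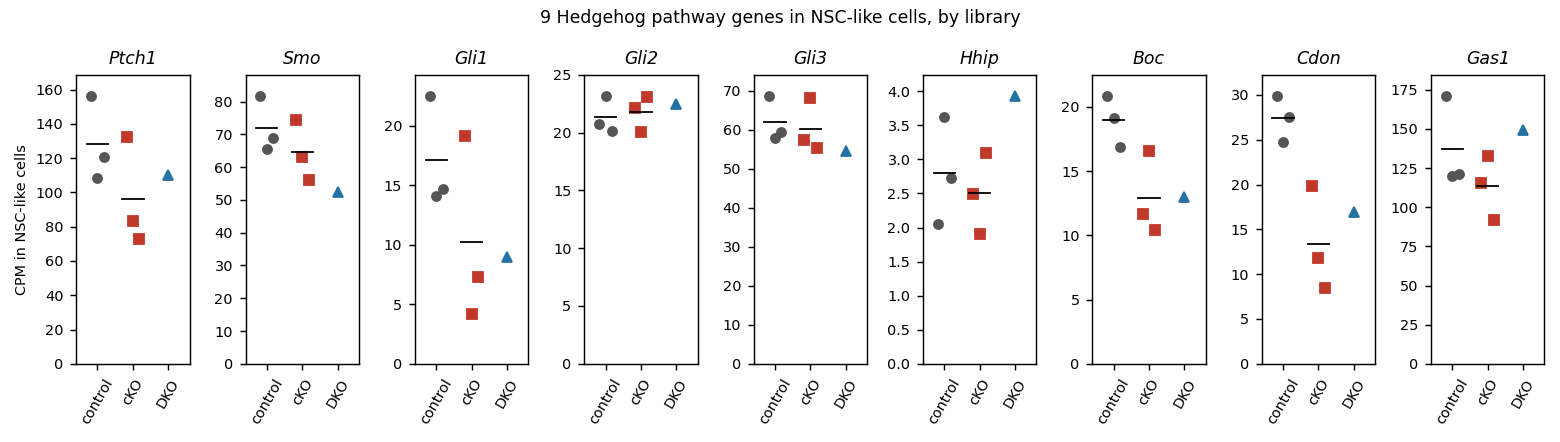
Levels of the 9 genes in NSC-like cells (CPM, y axis from 0, a separate scale for each gene), with a point for each control, cKO and DKO library and a line at the mean of a group with 3 libraries. The cKO points of Cdon (8.50 to 19.8 CPM) and Boc (10.4 to 16.6 CPM) lie below all control points, and those of the other 7 genes overlap them.

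The target genes Gli1 and Ptch1 varied widely within the cKO group. Gli1 was at 22.5, 14.1 and 14.7 CPM in the control libraries, 19.2, 4.14 and 7.28 CPM in the cKO libraries and 8.97 CPM in the DKO library. The first cKO library lay inside the control range and the other two below it, and the log2 fold change of −0.63 (SE 0.47) had an edgeR adjusted p of 0.643. After thinning to 2000 UMIs, the share of NSC-like cells with a Gli1 UMI was 3.38, 2.6 and 2.58% in the controls, 3.62, 0.749 and 1.48% in the cKO libraries and 2.00% in the DKO library, the second cKO value resting on 2 of 267 cells. Ptch1 showed the same arrangement, at 156, 108 and 121 CPM in the controls and 132, 83.1 and 72.9 CPM in the cKO libraries, with 110 CPM in the DKO library (log2 fold change −0.34, SE 0.22, edgeR adjusted p 0.567). Without cKO library 1, Gli1 had a change of −1.37 with an edgeR adjusted p of 0.00683 and Ptch1 one of −0.62 with 0.0404, and both were called. A call for Gli1 and Ptch1 thus depended on that 1 library, and calls over all genes of NSC-like cells also rose without it.

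The transducer and the other Gli factors were closer between groups. Smo was at 81.7, 65.7 and 68.8 CPM in the control libraries, 74.4, 63.1 and 56.1 CPM in the cKO libraries and 52.4 CPM, the lowest of the 7, in the DKO library (log2 fold change −0.08, SE 0.15). Gli2 ranged from 20.1 to 23.2 CPM in the controls and from 20.1 to 23.1 CPM in the cKO libraries, with 22.5 CPM in the DKO library (0.12, SE 0.16). Gli3 ranged from 57.8 to 68.7 CPM in the controls and from 55.3 to 68.2 CPM in the cKO libraries, with 54.5 CPM in the DKO library (0.03, SE 0.14). The groups overlapped for all of these, and the direction for Gli3 turned under several alternatives. Hhip was at 2.06 to 3.63 CPM in the controls, 1.91 to 3.09 CPM in the cKO libraries and 3.93 CPM in the DKO library (−0.02, SE 0.41), and its direction turned as well.

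Sums of marker lists in NSC-like cells were set beside these values, with no test. The 7 neuroblast markers summed to 116 to 171 CPM in the control and 71.4 to 135 CPM in the cKO libraries, each lower in the cKO mean, and the 7 TAP markers to 361 to 458 against 325 to 395 CPM, with 6 of 7 lower. The 7 NSC markers summed to 5426 to 5824 CPM in the controls and 5853 to 6403 CPM in the cKO libraries. Of 6 regional identity genes, Pax6 was at 113, 134 and 133 CPM in the controls, 98.1, 48.7 and 57.2 CPM in the cKO libraries and 101 CPM in the DKO library, and Gsx2 at 45.4, 58.2 and 24.9 against 31.1, 12.7 and 13.2 CPM, with 31.2 CPM in the DKO library. Emx1 averaged 5.52 CPM in the control and 0.924 CPM in the cKO libraries, Nkx6-2 63.5 and 65.7 CPM, Nkx2-1 1.23 and 1.18 CPM, and Zic1 1.62 and 1.04 CPM. No neuroblast, TAP or NSC marker list was at 0 in any library. The sum of the astrocyte list, whose markers were also raised in this cluster, is not given here. The sums printed therefore do not show whether the share of astrocyte-like cells in the cluster differed between groups. The part of the marker lists in the Cdon and Gli1 values was not tested.

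Outside NSC-like cells, Cdon was the member with an unadjusted p under 0.05 in the most types. It was tested in 10 types, its fitted change was below 0 in 9 of them, and its unadjusted p was under 0.05 in 4, NSC-like cells included. In TAP-like cells, it was at 33.9, 31.4 and 37.7 CPM in the control libraries, 27.3, 19.8 and 23.0 CPM in the cKO libraries and 20.5 CPM in the DKO library, without overlap of control and cKO libraries. The log2 fold change was −0.48 (SE 0.17), with an edgeR adjusted p of 0.622 (unadjusted p = 0.0117). In that type 6.48% of all genes had such an unadjusted p, and 11.1% did not overlap.

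Neuroblast-like cells held Cdon at 28.8, 28.2 and 22.8 CPM in the control libraries, 22.6, 18.3 and 14.6 CPM in the cKO libraries and 13.6 CPM in the DKO library. The highest cKO library was just under the lowest control. The log2 fold change of −0.46 (SE 0.20) had an edgeR adjusted p of 0.570 (unadjusted p = 0.0384). In this type 8.62% of all genes had an unadjusted p under 0.05 and 13.1% did not overlap. In astrocyte-like cells Cdon was at 3.83, 3.02 and 4.68 CPM in the controls, 2.76, 0.905 and 0.674 CPM in the cKO libraries and 5.76 CPM, above all others, in the DKO library. The change there was −1.39 (SE 0.64, edgeR adjusted p 0.473), from 62 UMIs in all, and it ranged from −2.34 to −0.91 with 1 library left out (adjusted p 0.127 to 0.939).

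Among the remaining types, the DKO level of Cdon in ependymal-like cells was 6.64 CPM, against 16.7 to 20.4 CPM in the controls and 10.5 to 17.0 CPM in the cKO libraries, and in cluster 9 it was 18.6 CPM, against 27.8 to 37.9 and 22.2 to 34.7 CPM. The DKO library was thus below all 6 others in these 2 types, as it also was in neuroblast-like and neuron-like cells (6.26 CPM in the latter), and with 1 library there is no test. Whether the change of Cdon differed between cell types was not tested, and all types come from the same libraries.

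**Figure D5:**
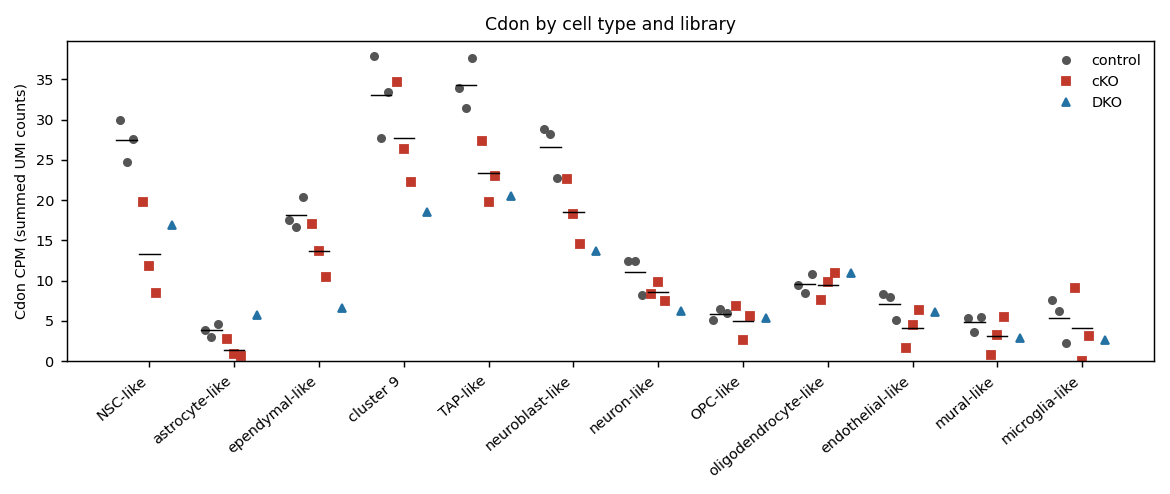
Cdon level (CPM, y axis from 0) in the 12 cell types (x axis), with a point for each control, cKO and DKO library and a line at the mean of a group with 3 libraries. In NSC-like, TAP-like, neuroblast-like and astrocyte-like cells all 3 cKO points lie below the 3 control points.

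The 3 remaining pairs with an unadjusted p under 0.05 or with no overlap involved different genes. Ptch1 in astrocyte-like cells was at 233, 145 and 166 CPM in the control libraries, 166, 105 and 108 CPM in the cKO libraries and 138 CPM in the DKO library, and the groups overlapped. Its log2 fold change was −0.49 (SE 0.22) with an edgeR adjusted p of 0.445, and −0.77 with an adjusted p of 0.0389 without cKO library 1. Among all genes of astrocyte-like cells, 9.99% had an unadjusted p under 0.05 and 13.9% did not overlap.

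In cluster 9, Gli3 was at 25.8, 16.3 and 20.1 CPM in the control libraries, 16.6, 13.8 and 11.9 CPM in the cKO libraries and 18.2 CPM in the DKO library. The groups overlapped by 1 library each, and the log2 fold change was −0.51 (SE 0.23, edgeR adjusted p 0.472), with 10.2% of all genes there under an unadjusted p of 0.05. Smo in mural-like cells was at 42.5, 38.9 and 39.4 CPM in the controls, 29.6, 27.2 and 30.2 CPM in the cKO libraries and 24.0 CPM in the DKO library, without overlap. Mural cells arise outside the radial glial lineage, and the source of this difference was not tested. Of all genes tested in mural-like cells, 9.18% did not overlap. The log2 fold change was −0.39 (SE 0.19) with an unadjusted p of 0.0549 in edgeR.

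Gas1 had a fitted change below 0 in all 12 types, from −0.77 to −0.02 on the log2 scale, but its smallest unadjusted p was 0.182 and the control and cKO libraries overlapped in each. Ptch1 was below 0 in 4 of 12, Smo in 9 of 12, Gli1 in 3 of 4, Gli2 in 3 of 6, Gli3 in 2 of 10, Hhip in 4 of 7 and Boc in 5 of 7 of the types where each was tested. In all types between 47.7 and 52.2% of all genes had a fitted change above 0. The inhibitor Hhip in oligodendrocyte-like cells was at 201, 173 and 196 CPM in the controls, 192, 209 and 199 CPM in the cKO libraries and 221 CPM in the DKO library. In OPC-like cells it was at 58.5, 65.4 and 60.9 CPM in the controls and 60.4, 85.6 and 47.5 CPM in the cKO libraries, with 34.6 CPM in the DKO library, the lowest of the 7.

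A wider list of 49 Hedgehog pathway genes was set beside the 9 members. In NSC-like cells 44 of them were tested, 28 had a fitted change above 0, 1 was called higher and 0 lower, and the median change was 0.03, beside −0.01 over all genes. By role, 10 of 14 genes for the restraint and processing of Gli proteins, 6 of 8 cilium genes, 5 of 7 tested reported target genes, 4 of 9 genes of Smo partners and trafficking, 2 of 4 tested genes of ligands and their release and 1 of 2 other receptors were above 0. These groups, like the members, were chosen with earlier results of these data known.

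The 1 called gene in NSC-like cells was Lrp2 (chromosome 2, 69424340 to 69586065, minus strand), which encodes megalin, an endocytic receptor that binds Shh. It rose from 1.65, 0.806 and 1.09 CPM in the control libraries to 5.16, 15.3 and 16.1 CPM in the cKO libraries, with 5.24 CPM in the DKO library. All cKO libraries lay above the controls, as they did for 6.43% of all genes tested in NSC-like cells. The log2 fold change was 3.41 (SE 0.49) with an edgeR adjusted p of 0.0488, and the call was lost when any 1 control library, cKO library 2 or cKO library 3 was left out, with adjusted p-values up to 0.364. Ependymal-like cells expressed Lrp2 far more, at 96.5, 40.7 and 64.8 CPM in the controls and 106, 98.7 and 125 CPM in the cKO libraries. The 6 ependymal markers summed in NSC-like cells to 200 to 290 CPM in the controls and 230 to 395 CPM in the cKO libraries, and their part in the Lrp2 value was not tested.

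The next smallest p-values of the wider list in NSC-like cells belonged to Scube2 and Tulp3. SCUBE2 helps to release lipid-bound Hedgehog ligand from the cell that makes it. Scube2 had 1 UMI in the NSC-like cells of the control libraries and 17 in those of the cKO libraries, with an edgeR adjusted p of 0.184. Tulp3, which encodes a carrier of receptors into the cilium, was at 37.2, 31.2 and 25.2 CPM in the controls, 36.0, 48.7 and 37.7 CPM in the cKO libraries and 28.6 CPM in the DKO library (log2 fold change 0.46, SE 0.17, edgeR adjusted p 0.273).

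Scube2 was followed into the progenitor types after its values had been seen. In cluster 9 the control libraries had 0 Scube2 UMIs of 13938380, and the cKO libraries had 99 of 7731842, at 4.38, 18.5 and 18.9 CPM, with 5.44 CPM in the DKO library. The cKO level, pooled, was at least 59.5-fold higher than the limit of 3 counts over the control group, and the edgeR adjusted p there was 0.0664. TAP-like cells held 9 UMIs in the controls, at 0.113, 0.606 and 0.217 CPM, and 66 in the cKO libraries, at 1.11, 11.3 and 6.80 CPM, with 3.29 CPM in the DKO library and an edgeR adjusted p of 0.508. All cKO libraries lay above all controls in both types. In TAP-like cells 11.1% of all genes did not overlap in either direction, and for cluster 9 that share is not given here. With 1 library left out, the edgeR adjusted p ranged from 3.12e-07 (without cKO library 1) to 0.344 (without control library 2) in cluster 9, and from 8.75e-05 (without cKO library 1) to 0.999 (without cKO library 3) in TAP-like cells, and among these fits it was called only without cKO library 1. DESeq2 called it in both types. How many of all genes these fits called in cluster 9 and TAP-like cells is not given here. In NSC-like cells both DESeq2 and the fit without cKO library 1 called more of all genes than the main fit.

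In astrocyte-like cells, 1 gene of the wider list was called. Ccnd2 (chromosome 6, 127125162 to 127152193, minus strand), a cyclin of the G1 phase that is also a reported Hedgehog target, rose from 93.5, 71.2 and 93.2 CPM in the control libraries to 143, 189 and 198 CPM in the cKO libraries, with 206 CPM in the DKO library. No cKO library overlapped the controls, and 7.28% of all genes in astrocyte-like cells had all cKO libraries above the controls. The log2 fold change was 1.04 (SE 0.19) with an edgeR adjusted p of 0.00847, and 0.35 with an adjusted p of 0.586 when cells were assigned by markers alone. The call was also lost without control library 2, cKO library 2 or cKO library 3, with adjusted p-values up to 0.0853. In NSC-like cells Ccnd2 ranged from 453 to 658 CPM in the controls and from 433 to 651 CPM in the cKO libraries, and the groups overlapped.

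Whether NSC-like cells with a Gli1 UMI also carried other Hedgehog or regional genes more often was asked within each library, after thinning to 2000 UMIs. Of 15 genes compared in the 6 libraries with at least 5 Gli1-positive cells, 0 had an adjusted p under 0.05 in an exact two-sided sign-flip permutation test, whose smallest p with 6 libraries is 0.0312, too large for any single gene to pass after adjustment over 15. Ptch1 was found in a mean of 29.5% of Gli1-positive and 18.5% of Gli1-negative cells, a difference of 11.03 percentage points (SD 20.0, higher in 4 of 6 libraries, exact permutation p = 0.25, adjusted p = 0.417). Pax6 was found in 12.6% and 19.0%, a difference of −6.36 percentage points (SD 6.44). This difference was below 0 in 6 of 6 libraries (exact permutation p = 0.0312, adjusted p = 0.156), though only −0.33 in control library 2 and −0.25 in cKO library 1. That adjusted p also counts Emx1 and Hhip at the same p, which were too rare for their direction to be informative, with means of 0.956% and 0.565% of Gli1-negative and 0% of Gli1-positive cells.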

How the data were processed

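The deposited values were raw counts: the authors ran Cell Ranger (per the file headers, 6.0.1 for the first 2 libraries of the control and of the cKO group and 6.1.1 for the other 3; the submitters' processing notes name 6.1.1 and mm10), which counts each UMI once per gene and barcode and keeps the barcodes it calls as cells. Totals were 45758003 to 141353017 UMIs per library. The gene annotation is not given in the sources used here, and 99.6% of gene identifiers were found in GENCODE vM21 of GRCm38, from which positions were taken. Ptch1, Smo, Gli3, Boc and Cdon each overlap 1 gene on the same strand there, whose reads counting can confuse with theirs.

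Cells with 500 to 7000 genes and at most 10% mitochondrial counts were kept, leaving 23117331 to 105002786 UMIs per library. They were log-normalised, integrated by anchors over 2000 variable genes (58 Hedgehog genes left out) and 30 principal components, and clustered at resolution 0.15 in Seurat 5.3.0 (R 4.3.3). A cluster was named where 3 or more markers of a list reached 10% of its cells and a log2 fold of 1 over the other cells. Ties between lists were settled after the clusters had been seen, first by markers among the 10 leading genes, and a name was withdrawn where under 50% of cells scored highest for it. Pericyte and smooth muscle clusters were joined as mural-like. Of 17 marker lists, the sums over each cell type were compared between groups. Doublets were scored with Scrublet (scanpy 1.11.5), which marked 1043 cells (2.41%), kept in the main analysis; its own threshold failed in control library 1 and was replaced by the median of the others.

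Counts were summed per library and type, given 10 cells or more, and tested with edgeR 4.0.16 (filterByExpr, TMM, robust quasi-likelihood fit of 3 groups over 7 libraries), with Benjamini-Hochberg adjustment over all genes of a type and a threshold of 0.05. DKO values have no test. Levels of single members were compared by exact two-sided permutation tests, which with 3 against 3 libraries cannot go below 0.1. DESeq2 1.42.0, other filters, clusterings, marker assignment, blocks and leaving out libraries were the alternatives. Tested on simulated counts for NSC-like cells, edgeR recovered 29.5% of 200 genes changed by 1 on the log2 scale. Libraries with equal replicate numbers share no stated origin. For replicate 3, their deviations from the group means were correlated at 0.22 to 0.56 in every compared type. For replicate 1 the correlations were 0.24 to 0.47, except in neuron-like cells (−0.006). For replicate 2 they lay from −0.16 to 0.14. All 3 pairs were above 0.1 only in endothelial-like (0.29, 0.14, 0.49) and mural-like cells (0.36, 0.10, 0.45). The source of these correlations was not tested. The members, the wider list and the markers were chosen with earlier results of these data known. All members were named in each type, and of the wider list the called genes, Shh and the 3 genes with the smallest p in NSC-like cells.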

Additional observations from a re-analysis of the deposited data

How the results depend on the processing

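No member was called in any type in the main analysis, under DESeq2, with the Cell Ranger version as a block or without the DKO library. The same held with at most 5% mitochondrial counts, doublets left out, markers alone or resolution 0.3. Markers alone and resolution 0.3 covered 11 types, without cluster 9. In clusters without integration no member was called either, but only 9 types were compared there. NSC-like cells, astrocyte-like cells and cluster 9 were not among them, so that setting says nothing of these types. Without a filter on low counts, 1 member was called in NSC-like cells (Cdon, adjusted p 0.0306). With the replicate number as a block, 1 was called in NSC-like cells (Cdon, adjusted p 0.0290) and 1 in astrocyte-like cells (Ptch1, log2 fold change −0.52, adjusted p 0.0462), and over all genes of NSC-like cells the calls went from 19 to 494; the block changed no other member call. With 1 library left out in turn, 0 to 3 members were called in NSC-like cells and 0 to 1 in astrocyte-like cells, in each case above 0 only without cKO library 1. That fit also raised the calls over all genes of NSC-like cells, as given above. Whether members were called more often than other genes in these fits was not tested. The member calls are therefore not read as a result about the members. For astrocyte-like cells, the calls over all genes under the block and without cKO library 1 are not given here. The change of Cdon in NSC-like cells was negative throughout, from −1.39 to −0.70 with 1 library left out (adjusted p 0.000477 to 0.533), and its DESeq2 adjusted p was 0.0516. Over all genes of NSC-like cells, DESeq2 called 507, no filter 331, the Cell Ranger block 4, markers alone 0, at most 5% mitochondrial counts 8, resolution 0.3 72, and the fit without the DKO library 0.

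The direction turned for 2 members in NSC-like cells, neither of them called. Gli3 was at −0.029 with at most 5% mitochondrial counts, at −0.20 with markers alone and from −0.041 to 0.080 with 1 library left out. Hhip was at 0.0059 with the replicate block, 0.53 with at most 5% mitochondrial counts, 0.31 with markers alone, 0.034 at resolution 0.3 and from −0.24 to 0.15 with 1 library left out.

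Calls in the wider list moved more. In NSC-like cells, 1 call became 0 under the Cell Ranger block, without the DKO library, with at most 5% mitochondrial counts and with markers alone, and 0 to 3 with 1 library left out. In astrocyte-like cells, 1 became 2 without a filter, with the replicate block and with the Cell Ranger block, and 0 to 1 with 1 library left out. Where the main analysis made 0 calls, there were 1 without a filter in ependymal-like, neuroblast-like and neuron-like cells and in cluster 9, and 3 in TAP-like cells. DESeq2 gave 1 in cluster 9 and 1 in TAP-like cells, the replicate block 1 each in cluster 9, TAP-like and neuroblast-like cells, at most 5% mitochondrial counts 1 in cluster 9, and markers alone 2 in OPC-like cells. With 1 library left out the ranges were 0 to 2 in cluster 9, 0 to 3 in TAP-like and 0 to 1 in neuroblast-like cells. The calls over all genes under these settings are given above for NSC-like cells only. The counts of the wider list are therefore not read as a result about that list, and the causes were not tested. Of 414 alternative values of the members' levels by type, 49 moved by more than the SD between control libraries, 20 of them with markers alone and 13 at resolution 0.3, an alternative added after the data had been seen. No NSC-like or astrocyte-like cluster was found without integration. Cluster 9, which has no name, was not matched there, with markers alone or at resolution 0.3. At resolution 0.3 an unnamed cluster of 2110 cells was led by Ung and Cdc6. It held Ptch1 at 65.1 ± 16.7 CPM and Gli3 at 20.0 ± 4.77 CPM in the controls, but was not counted among the alternatives. Co-detection with Gli1 had 0 calls in the alternatives too, which says nothing of stability, since 7 or fewer libraries cannot bring 1 gene past the adjusted threshold. Depth limits Gli1 and Shh, most of whose levels outside the named types rest on a few UMIs.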

Other observations

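Cluster 6, the unnamed cluster led by Lgals7, Lgals1 and Hmga2, held 52 Gli1 UMIs in 2336 cells. After thinning to 2000 UMIs, with all libraries pooled, 0.947% of its cells had one (exact 95% interval 0.455 to 1.74%, counting error only), beside 2.55% of NSC-like cells. Its Cdon level was 29.9, 14.3 and 35.4 CPM in the control libraries, 17.7, 2.5 and 7.91 CPM in the cKO libraries and 19.9 CPM in the DKO library, and the groups overlapped. Gas1 there was at 59.3 to 134 CPM in the controls and 60.0 to 119 CPM in the cKO libraries. Its median depth was 1782 UMIs per cell, the lowest of the clusters, and it was left out of the comparisons after this and its uneven origin had been seen.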
